A study of Mus musculus with 19 samples.

Results

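The brown fat of adult mice that lack Med1 in their fat cells was compared with that of floxed controls: 2 arrays titled AdipoqCreMed1f/f and 2 titled Med1f/f, all of interscapular brown adipose tissue at 10 weeks after birth. These 4 arrays are 4 of the 19 of the series, and 22180 genes were measured on each, every transcript cluster with exactly 1 gene symbol and 1 cluster per gene. Both groups carry the floxed Med1 alleles, and the labels give Cre to the knockout group only, so effects of the Cre transgene and of Med1 loss cannot be told apart. Adipoq-Cre is driven by the adiponectin promoter, which is active in mature fat cells, so other cells of the tissue are not its target; Med1 was not measured by cell type here. The labels do not say whether the arrays came from separate animals or from pools. The p-values below therefore measure the spread between arrays, in some tests with embryonic arrays included. The other brown fat arrays, used here for their spread and for 1 comparison, are of the embryonic stage labelled E17.5: 3 of Myf5CreMed1f/w, with 1 floxed allele, and 4 of Myf5CreMed1f/f, with both.

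MED1 is a subunit of Mediator, the large complex that carries signals from DNA-bound transcription factors to RNA polymerase II, and it is the subunit through which many nuclear receptors, PPARG among them, contact the complex. Brown fat burns fatty acids and glucose to make heat, through uncoupling protein 1 (Ucp1) in its dense mitochondria. Its fat cells depend on PPARG and C/EBP factors for their identity and on PGC-1 coactivators, PPARA and oestrogen-related receptors for the genes of fuel use. Values are log2 signals as deposited, on which a fold change is a difference, and ± marks the standard error of a log2 difference.

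The tissue carried its defining marker: Ucp1 read 12.09 and 12.50 in the Med1f/f arrays and 10.90 and 11.75 in the knockout arrays (replicates 1 and 2, the order used throughout). The medians of the 4 arrays were 2.87 to 2.89 and their lower quartiles 2.22 to 2.24. Correlations over genes were 0.985 between the control arrays, 0.986 between the knockout arrays and 0.972 to 0.979 across genotypes. Xist lay under the lower quartile in all 4 arrays, at 2.06 to 2.19, and the Y-linked gene Kdm5d read 4.67 to 4.99, above it. Skeletal muscle genes, which mark neighbouring tissue, had mean signals over 29 genes of 3.19 and 4.0 in controls and 3.15 and 3.62 in knockouts.

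The targeted gene comes first as a check of the labels. Med1 read 5.99 and 6.90 in the controls and 5.28 and 5.13 in the knockouts. Both knockout arrays lay below both controls, by 2.36-fold on average (log2 fold change -1.24 ± 0.31), and the difference missed the threshold in limma's fit of the 4 arrays (adjusted p = 0.19) while it passed when the spread was taken from all 11 brown fat arrays (adjusted p = 0.029). Bulk tissue holds cells other than fat cells and the cluster's probe positions were not used here, so the remaining signal does not measure the recombination. In bulk tissue, fewer cells of a type and less RNA per cell cannot be told apart, here and in every result that follows.

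Which genes differ between adult knockout and control brown fat was asked first in limma's fit of the 4 arrays, which leaves 2 residual degrees of freedom. It called 6 genes at an adjusted p under 0.05, 3 higher (0.0135% of all genes tested) and 3 lower (0.0135%). Another 56 genes had an adjusted p between 0.05 and 0.06, the lowest at 0.052, and 3013 genes had an unadjusted p under 0.05 where 1109 would be expected by chance. The fit of all 11 brown fat arrays, which takes each gene's spread from the embryos too, called 979 genes higher (4.41%) and 697 lower (3.14%). All 6 were among them. It assumes that a gene varies alike in embryos and adults, which was not tested. Standard errors of log2 fold changes moved both ways with it. That of Nr4a2 was 0.49 in the fit of 4 arrays and 0.37 in that of 11. For Scd1 they were 0.21 and 0.46. The arrays of the groups did not overlap for 4832 genes in the higher direction (21.8%) and for 4467 in the lower (20.1%). With 2 arrays a group such separation often arises by chance, so for a single gene it is weak evidence. Below, a gene is said to have risen or fallen only if it passed the fit of the 4 arrays, and where 2 adjusted p-values stand together, that of the 4 arrays comes first. Counts of list members below stand beside these shares of all genes: 21.8% higher and 20.1% lower without overlap. In the fit of 11 arrays the shares are 4.41% and 3.14%. Some lists share members, as Pck1 and Dgat2 count under both mature adipocyte and triglyceride synthesis genes. Counts of such lists are therefore not independent of each other.

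The 3 genes that fell encode a noncoding RNA, an enzyme of ketone use and a transporter. Lncbate10, a long noncoding RNA enriched in brown fat, read 6.98 and 7.70 in the controls and 3.26 and 3.20 in the knockouts. It fell 17.3-fold (log2 fold change -4.11 ± 0.26, adjusted p = 0.049 in the fit of 4 arrays and 0.00031 in that of 11), with no overlap between the groups. Oxct1 encodes the enzyme that activates acetoacetate so that tissues outside the liver can burn ketone bodies. Its signals were 8.89 and 8.89 against 6.90 and 6.86. Oxct1 thus fell 4.04-fold (-2.01 ± 0.13, adjusted p = 0.049 and 6.4e-05), and the arrays within each group were nearly equal. Mfsd4b1, a membrane transporter of the major facilitator superfamily, read 5.90 and 5.93 in controls and 3.79 and 3.73 in knockouts, and fell 4.45-fold (-2.15 ± 0.13, adjusted p = 0.049 and 0.00024).

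The 3 genes that rose encode a detoxifying enzyme, a matrix protein and a predicted transcript. Ephx1, microsomal epoxide hydrolase, read 5.80 and 5.48 in the controls and 8.39 and 8.60 in the knockouts. It rose 7.25-fold (log2 fold change 2.86 ± 0.17, adjusted p = 0.049 in the fit of 4 arrays and 9.2e-05 in that of 11). Matn2, matrilin 2, an adaptor of the extracellular matrix, read 4.59 and 4.46 against 6.97 and 6.89 and rose 5.29-fold (2.40 ± 0.14, adjusted p = 0.049 and 0.0014). The predicted gene Gm6644 rose 4.90-fold, from 4.38 and 4.19 to 6.60 and 6.55 (2.29 ± 0.14, adjusted p = 0.049); the rule for naming leaves out predicted genes, and it was chosen after its values were seen. In all 6 genes the groups stood clear of each other, as the plot of single arrays shows.

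**Figure D1:**
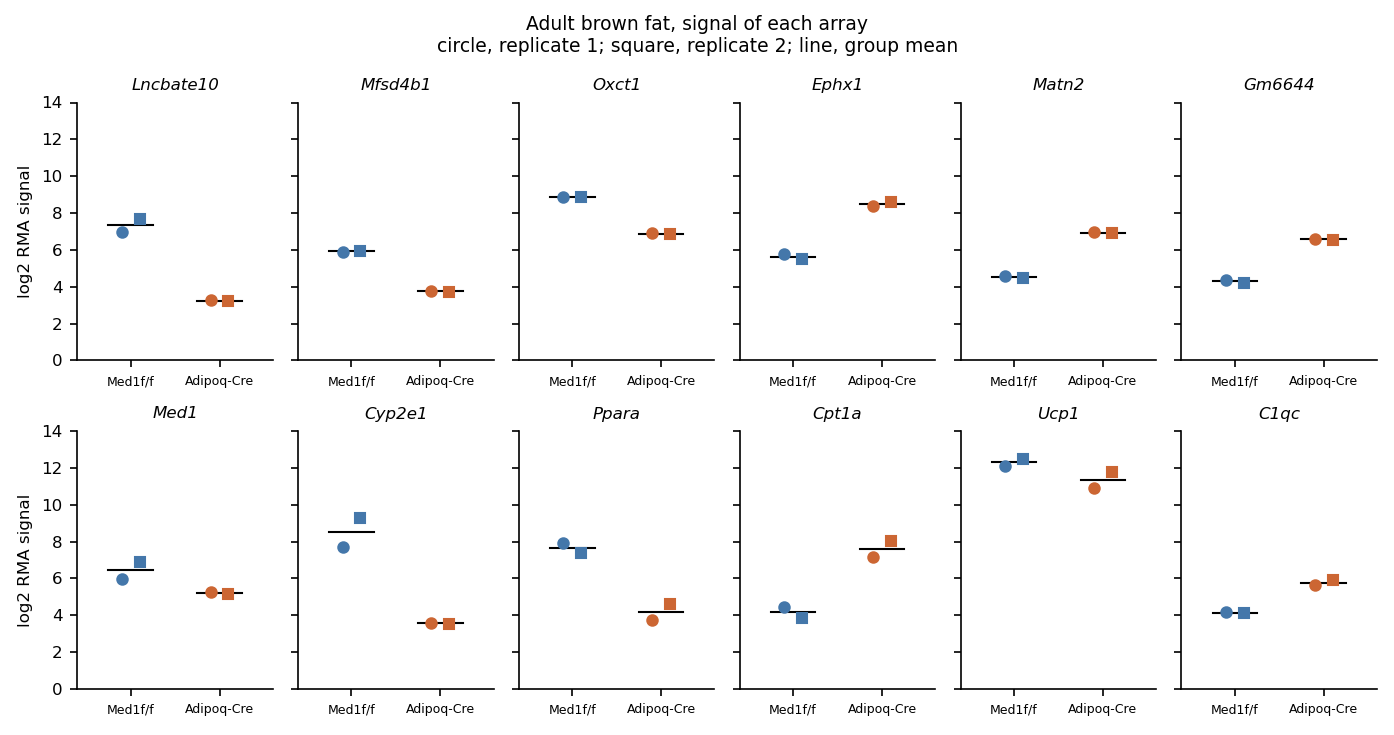
Log2 RMA signal (vertical axes) of each adult array for the 6 genes that passed the fit of 4 arrays (top row) and for Med1 and 5 other genes (bottom row), with Med1f/f controls in blue, Adipoq-Cre knockouts in orange, replicate 1 as a circle, replicate 2 as a square and the group mean as a line. The groups stand apart in all 12 genes, and Oxct1 reads 8.89 in both controls against 6.90 and 6.86 in the knockouts.

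Promoter sequences of 5 genes are shown, picked by name after the values were seen from those with an entry in the RefSeq GRCm38.p6 set. They are 2 genes that fell, 1 that rose, and the lipid genes Ppara and Cpt1a described next. Each run covers the 250 bases before the annotated start, 5′ to 3′ on the gene's strand: Oxct1 at chr15:4026178-4026427 (plus strand), Mfsd4b1 at chr10:40025269-40025518 (minus), Ephx1 at chr1:181017570-181017819 (minus), Ppara at chr15:85735526-85735775 (plus) and Cpt1a at chr19:3323051-3323300 (plus). Capitals mark exact matches, on either strand, to AGGTCA (the nuclear receptor half-site), CACGTG (an E-box), CCAAT, TTGCGCAA (a C/EBP site), TGACGTCA (a cAMP response element) or GGGCGG (the GC box).
Oxct1: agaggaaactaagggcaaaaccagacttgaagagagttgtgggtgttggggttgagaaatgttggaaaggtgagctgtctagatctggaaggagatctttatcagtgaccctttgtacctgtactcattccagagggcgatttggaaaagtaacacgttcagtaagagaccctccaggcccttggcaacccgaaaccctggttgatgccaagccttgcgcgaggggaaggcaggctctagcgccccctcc
Mfsd4b1: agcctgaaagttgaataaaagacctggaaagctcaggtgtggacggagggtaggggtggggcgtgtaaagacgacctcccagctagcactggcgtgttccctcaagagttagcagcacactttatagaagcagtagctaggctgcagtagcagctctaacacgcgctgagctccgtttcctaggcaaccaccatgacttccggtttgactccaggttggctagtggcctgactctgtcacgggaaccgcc
Ephx1: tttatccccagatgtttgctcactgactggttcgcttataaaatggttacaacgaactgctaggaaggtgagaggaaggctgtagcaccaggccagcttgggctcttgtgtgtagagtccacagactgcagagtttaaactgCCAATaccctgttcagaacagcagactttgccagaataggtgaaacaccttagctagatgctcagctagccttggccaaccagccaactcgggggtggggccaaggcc
Ppara: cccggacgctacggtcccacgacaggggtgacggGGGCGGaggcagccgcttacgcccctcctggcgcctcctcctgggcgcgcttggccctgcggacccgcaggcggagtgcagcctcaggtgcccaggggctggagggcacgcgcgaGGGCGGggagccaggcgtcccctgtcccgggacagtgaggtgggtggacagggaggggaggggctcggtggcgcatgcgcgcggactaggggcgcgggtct
Cpt1a: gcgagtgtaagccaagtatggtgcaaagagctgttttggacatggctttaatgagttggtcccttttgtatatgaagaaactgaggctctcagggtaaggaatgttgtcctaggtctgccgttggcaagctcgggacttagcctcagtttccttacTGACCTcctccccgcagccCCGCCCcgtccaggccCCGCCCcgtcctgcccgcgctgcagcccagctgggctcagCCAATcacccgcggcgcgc
The Oxct1 and Mfsd4b1 runs hold no match, the Ephx1 run holds 1 CCAAT, the Ppara run 2 GC boxes, and the Cpt1a run a half-site, 2 GC boxes and a CCAAT.

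The share of promoters with each motif was counted over 300 bases, 250 before to 50 after the start, for genes with an unadjusted p under 0.01 and no overlap, as a description of these sequences. Of 669 such genes on the higher side 483 had a promoter entry, and of 491 on the lower side 403. The GC box was in 55.1% of the higher and 68% of the lower set, beside 35.9% of all 27025 promoters and 46.7% of the 16990 of measured genes. The half-site AGGTCA was in 13.5% and 16.4%, beside 16% of all promoters and 14.2% of measured genes. In the same order, CCAAT was in 35% and 36.5% beside 37.9% and 38.5%, CACGTG in 9.73% and 9.68% beside 7.24% and 8.18%, and TGACGTCA in 2.48% and 2.23% beside 1.88% and 2.45%. TTGCGCAA was in 3 and 0 promoters beside 0.185% and 0.224%. Exact letters were matched, and their absence says nothing of the factors.

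The genes described next missed the threshold of the 4-array fit and did not overlap between the groups. Cyp2e1, a cytochrome P450 that oxidises ethanol and acetone, read 7.71 and 9.30 in controls and 3.58 and 3.55 in knockouts, 30.7-fold lower (log2 fold change -4.94 ± 0.51, adjusted p = 0.059 in the fit of 4 arrays and 0.00073 in that of 11). Another P450, Cyp2b10, was 13.6-fold lower (5.68 and 8.17 against 3.29 and 3.03; adjusted p = 0.14 and 0.004). Slc27a2, which takes up and activates very long-chain fatty acids, read 8.26 and 9.65 against 3.67 and 6.10, 16.8-fold lower on average with a wide gap between the knockout arrays (adjusted p = 0.15 and 0.0047). The size of these 3 differences rested on single arrays: the log2 fold change of Cyp2e1 was -5.73 without Med1f/f replicate 1 and -4.15 without Med1f/f replicate 2, that of Cyp2b10 -5.01 and -2.52 without the same arrays, and that of Slc27a2 -5.29 without AdipoqCreMed1f/f replicate 2 and -2.86 without AdipoqCreMed1f/f replicate 1. The receptor gene Ppara, whose product drives fatty acid oxidation, read 7.93 and 7.36 against 3.76 and 4.61 and was 11-fold lower (-3.46 ± 0.34, adjusted p = 0.055 and 0.00059). Its coactivator Ppargc1b (PGC-1 beta) was 8.08-fold lower, at 7.73 and 7.01 against 4.21 and 4.51 (-3.01 ± 0.27, adjusted p = 0.052 and 0.00037).

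Pck1, which supplies glycerol backbones for triglycerides in fat cells, read 10.70 and 11.50 in controls and 7.37 and 8.36 in knockouts, 9.45-fold lower (adjusted p = 0.08 in the fit of 4 arrays and 0.002 in that of 11). Elovl3, a fatty acid elongase typical of active brown fat, was 12.6-fold lower (6.35 and 8.10 against 3.28 and 3.85; adjusted p = 0.1 and 0.0047), and its log2 fold change was -4.53 without Med1f/f replicate 1 and -2.78 without Med1f/f replicate 2. Ano1, a calcium-activated chloride channel, was 10-fold lower (7.56 and 7.33 against 4.74 and 3.49; adjusted p = 0.079 and 0.0025). Rasd1, a small GTPase induced by glucocorticoids, was 8.88-fold lower (8.04 and 6.80 against 4.13 and 4.41; adjusted p = 0.081 and 0.0014). In each of these genes both knockout arrays lay below both controls, and all 4 passed the fit of 11 arrays.

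On the higher side, Cpt1a led. It encodes the form of carnitine palmitoyltransferase 1 that is typical of liver, the step that admits long-chain fatty acids to mitochondria, and read 4.45 and 3.87 in controls and 7.14 and 8.04 in knockouts, 10.7-fold higher (log2 fold change 3.42 ± 0.35, adjusted p = 0.059 in the fit of 4 arrays and 0.00024 in that of 11). The muscle and brown fat form, Cpt1b, shares its cluster with other symbols and was not analysed here. Ptges, which makes prostaglandin E, was 8.62-fold higher (3.30 and 3.69 against 7.10 and 6.10; adjusted p = 0.075 and 0.00031). Plod2, a collagen lysyl hydroxylase, was 6.75-fold higher (3.52 and 3.63 against 6.63 and 6.03; adjusted p = 0.052 and 0.00073). Enpep, an aminopeptidase of the angiotensin system, was 5.42-fold higher (6.55 and 6.43 against 8.68 and 9.18; adjusted p = 0.052 and 0.00038). Orm1, an acute-phase protein gene, was 4.98-fold higher (7.60 and 7.91 against 9.88 and 10.26; adjusted p = 0.052 and 0.0014). Aqp11, Atp4b, Cdh9, Fads3 and Nr4a2 were higher by 4.90-fold, 6.07-fold, 5.07-fold, 5.54-fold and 6.55-fold. Their adjusted p was 0.07, 0.13, 0.052, 0.14 and 0.12 in the fit of 4 arrays. In that of 11 it was 0.0005, 0.0026, 9.8e-05, 0.004 and 0.0022. With 1 array left out, the log2 fold change of Atp4b ran from 1.83 to 3.38. That of Fads3 ran from 1.68 to 3.26 and that of Nr4a2 from 1.94 to 3.48. Cdh9 read 2.85 and 2.54 in controls, under their array medians of 2.88 and 2.89. Orm1, Cyp2b10, Ces1f and the H2 genes have close paralogues, and a cluster may read more than 1 of them.

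**Figure D2:**
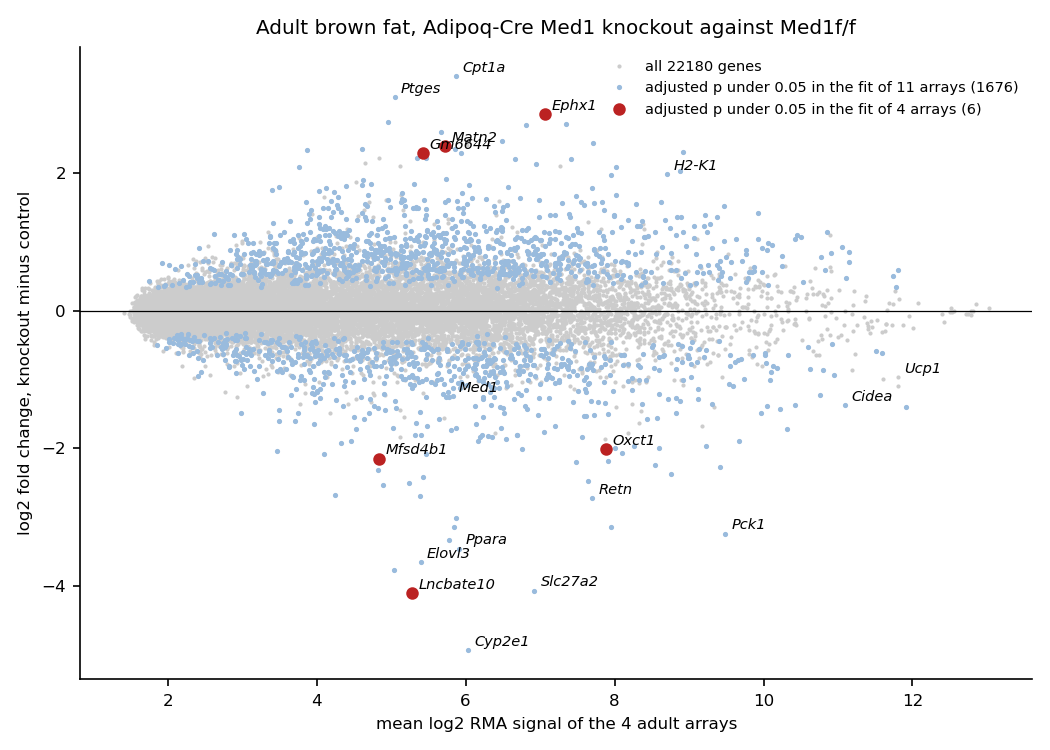
Log2 fold change of each gene, knockout minus control (vertical axis), against its mean log2 RMA signal over the 4 adult arrays (horizontal axis), for all 22180 genes in grey, the 1676 genes called in the fit of 11 arrays in blue and the 6 called in the fit of 4 arrays in red. Cyp2e1 (-4.94), Lncbate10 (-4.11) and Cpt1a (3.42) lie farthest out among the genes labelled.

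The fat cell's own regulators differed in part. Cebpa, a master factor of fat cells, read 8.65 and 8.13 in controls and 7.09 and 6.62 in knockouts, 2.89-fold lower (log2 fold change -1.53 ± 0.25, adjusted p = 0.11 in the fit of 4 arrays and 0.0022 in that of 11). Pparg was 1.63-fold lower, with 9.94 and 10.15 against 9.37 and 9.31 (adjusted p = 0.14 and 0.0065). Nr1d1, a clock receptor, was 3.18-fold lower (adjusted p = 0.2 and 0.02), and Ebf1 was 1.44-fold lower (adjusted p = 0.31 and 0.036). Mlx, the partner of the carbohydrate sensor ChREBP, was 1.52-fold higher (adjusted p = 0.16 and 0.02), while Mlxipl, which encodes ChREBP, read 8.94 and 8.04 against 8.90 and 7.98 and overlapped. Prdm16, a brown fat regulator, overlapped as well (-0.04 ± 0.16). Of 29 measured regulators, 9 were lower and 3 higher without overlap (background 20.1% and 21.8%), and 5 and 1 passed the fit of 11 arrays (background 3.14% and 4.41%). The median log2 fold change was -0.21, beside 0.0021 over all genes, and ran from -0.32 to -0.04 with 1 array left out.

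Brown fat and heat production genes were lower more often than higher. Of 33 measured, 18 were lower and 4 higher without overlap (background 20.1% and 21.8%), 10 and 3 passed the fit of 11 arrays (background 3.14% and 4.41%), and none passed the fit of 4 arrays, in which 15 lower and 4 higher had an unadjusted p under 0.05. The median was -0.62. Ucp1 was 1.96-fold lower and missed both thresholds (-0.97 ± 0.32, adjusted p = 0.29 and 0.28), with no overlap between the groups. Cidea, a lipid droplet protein of brown fat, read 11.82 and 11.73 against 10.49 and 10.32, 2.58-fold lower (adjusted p = 0.059 and 0.0081). Letmd1, an inner mitochondrial membrane protein, was 2.70-fold lower (adjusted p = 0.057 and 0.0042). Pank1, which starts coenzyme A synthesis, was 4.54-fold lower (8.79 and 9.21 against 6.41 and 7.23; adjusted p = 0.086 and 0.0036), and the mitochondrial deacetylase gene Sirt3 was 2.08-fold lower (adjusted p = 0.12 and 0.0075). Of the 4 genes higher without overlap, 3 passed the fit of 11 arrays. They were Zic1, a factor of brown fat lineage (4.20 and 4.20 against 5.10 and 5.03; adjusted p = 0.092 and 0.0073), Bmp8b (3.54-fold higher; adjusted p = 0.11 and 0.0017) and Fgf21 (1.58-fold higher; adjusted p = 0.18 and 0.048). The other was Lhx8, 1.49-fold higher (adjusted p = 0.35 and 0.13). Bmp8b and Fgf21 encode secreted signals.

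Several heat and nutrient genes varied more between the arrays of a genotype than between genotypes. Dio2, which activates thyroid hormone, read 5.07 and 9.49 in controls and 4.99 and 7.50 in knockouts. Ppargc1a (PGC-1 alpha) read 7.63 and 10.04 against 7.62 and 8.81. For Lep, the leptin gene, the signals were 8.10 and 5.68 against 7.73 and 4.17, and for Srebf1, a regulator of lipid synthesis, 7.22 and 5.46 against 6.71 and 5.56. The second array of both groups was thus the higher one for Dio2 and Ppargc1a and the lower one for Lep and Srebf1, and the genotypes overlapped in all 4 genes. The log2 fold change of Dio2 was -1.04 ± 1.58 and became 1.17 without Med1f/f replicate 2; that of Lep was -0.94 ± 1.34 and became 0.84 without AdipoqCreMed1f/f replicate 2. Mfsd2a, a lipid carrier induced by cold and fasting, and Pnpla3, a lipase-family gene induced by feeding, were chosen for the same pattern after their values were seen. Mfsd2a read 3.05 and 9.28 against 5.18 and 7.67, and Pnpla3 9.42 and 7.63 against 8.82 and 6.17. In all, 30 genes were higher by over 1 log2 unit in replicate 2 of both groups and 42 were lower, and 0 moved by that much in opposite directions.

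**Figure D3:**
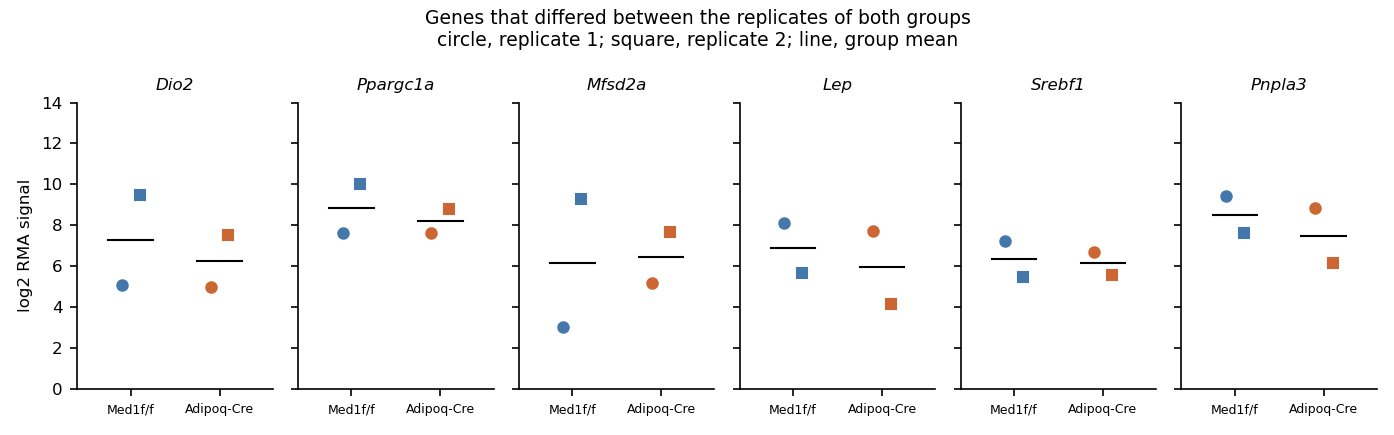
Log2 RMA signal of each adult array (vertical axis) for 6 genes that differed between the arrays of a genotype, with Med1f/f in blue, Adipoq-Cre in orange, replicate 1 as a circle, replicate 2 as a square and the group mean as a line. Replicate 2 is the higher array of both groups for Dio2, Ppargc1a and Mfsd2a and the lower for Lep, Srebf1 and Pnpla3.

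Genes of the mature fat cell were mostly lower. Of 25 measured, 18 were lower and 1 higher without overlap (background 20.1% and 21.8%). In the fit of 11 arrays 8 were lower and 0 higher (background 3.14% and 4.41%). None passed the fit of 4 arrays, in which 12 had an unadjusted p under 0.05, all lower. The median was -0.70. Retn, the adipokine resistin, read 9.0 and 9.13 in controls and 6.69 and 5.99 in knockouts, 6.61-fold lower (log2 fold change -2.73 ± 0.26, adjusted p = 0.052 and 0.00061). Plin4, a droplet coat protein, was 3.56-fold lower (8.25 and 8.70 against 6.74 and 6.56; adjusted p = 0.065 and 0.009), and Car3, carbonic anhydrase 3, 2.64-fold lower (12.60 and 12.62 against 11.67 and 10.74; adjusted p = 0.16 and 0.0041). Plin1 was 2.05-fold lower (adjusted p = 0.21 and 0.052). Other fat cell genes stood close in the groups. Adipoq itself, whose promoter drives the Cre, read 9.30 and 9.25 against 9.52 and 9.59 (0.28 ± 0.13, adjusted p = 0.45 and 0.15). Fabp4, the fatty acid binding protein, read 12.35 and 12.67 against 12.29 and 12.40, and Cd36, a fatty acid carrier, 11.56 and 11.90 against 11.83 and 11.97.

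Genes for triglyceride making and breaking differed from enzyme to enzyme. In the synthesis list, 10 of 16 genes were lower and 2 higher without overlap (background 20.1% and 21.8%). Past the fit of 11 arrays were 5 and 2 (background 3.14% and 4.41%), and the median was -0.57. Dgat2, which closes the triglyceride, read 10.83 and 10.41 in controls and 9.09 and 8.36 in knockouts, 3.71-fold lower (adjusted p = 0.096 and 0.0044), while its partner Dgat1 had a log2 fold change of 0.08. The first acylation enzyme Gpam was 2.21-fold lower (adjusted p = 0.15 and 0.044), and Gpat3, which does the same step, was 2.83-fold higher (4.44 and 4.64 against 5.82 and 6.27; adjusted p = 0.081 and 0.0024). Agpat2 was 2.60-fold lower (adjusted p = 0.12 and 0.041), and Mogat1, the entry of monoacylglycerol, was 3.58-fold higher (3.56 and 4.05 against 5.37 and 5.92; adjusted p = 0.086 and 0.00068). In the lipolysis list, 9 of 14 were lower and 0 higher without overlap, 4 of them past the fit of 11 arrays: Ces1f (3.54-fold), the lipase inhibitor G0s2 (3.47-fold), the protein kinase A subunit Prkar2b (2.79-fold) and the phosphodiesterase Pde3b (2.41-fold). The lipase Lipe was 1.63-fold lower (adjusted p = 0.24 and 0.064).

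Genes of new fatty acid synthesis showed no common direction. Fasn read 12.25 and 11.96 against 11.75 and 10.48 (log2 fold change -0.99 ± 0.42, adjusted p = 0.41 and 0.19), and Scd1, a desaturase, 12.40 and 12.31 against 11.53 and 10.99 (-1.09 ± 0.21, adjusted p = 0.13 and 0.2). Acaca, Acly and Elovl6 overlapped, with values of -0.06, 0.11 and -0.01. Elovl3 was the 1 of 27 genes lower in the fit of 11 arrays, and Fads3, the desaturase-like gene, 1 of 2 higher (background 3.14% and 4.41%). The list's median was -0.19, and it turned to 0.04 without Med1f/f replicate 1 and to 0.17 without AdipoqCreMed1f/f replicate 2. Cholesterol synthesis genes had a median of 0.45 over 15 genes, 6 higher and 1 lower without overlap (background 21.8% and 20.1%). In the fit of 11 arrays 0 were higher and 1 lower. That median was 0.70 without Med1f/f replicate 1 and 0.22 without Med1f/f replicate 2. The 1 gene lower was Fdft1, squalene synthase, which read 9.10 and 8.90 against 7.59 and 6.41, 4-fold lower (adjusted p = 0.13 and 0.0047), while Cyp51 and Msmo1 were 2.39-fold and 2.19-fold higher (adjusted p = 0.31 and 0.36 in the fit of 4 arrays and 0.3 and 0.26 in that of 11).

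Many genes of mitochondrial fuel use had signals lower by small amounts. In the fatty acid oxidation list, 20 of 31 genes were lower and 5 higher without overlap (background 20.1% and 21.8%), with a median of -0.41. Past the fit of 11 arrays (background 3.14% lower and 4.41% higher), 5 were lower: Acad11 (2.32-fold), Slc25a20, the carnitine carrier (1.98-fold), Acaa2 (1.80-fold), Etfb (1.59-fold) and Hadh (1.52-fold). Cpt1a was the 1 gene of the list higher in that fit, and Cpt2, the next step of the carnitine shuttle, had a value of 0.21 ± 0.15. Respiratory chain genes encoded in the nucleus were lower without overlap in 29 of 39 and higher in 1, with a median of -0.30. Sdhb (9.72 and 9.29 against 8.65 and 8.44), Uqcrc1, Cyc1 and Ndufb8 passed the fit of 11 arrays, at log2 fold changes of -0.96, -0.89, -0.86 and -0.80, and the list's lowest value was -0.96. In the citric acid cycle and pyruvate list, 18 of 29 were lower and 4 higher without overlap, and 8 lower and 1 higher passed the fit of 11 arrays. Citrate synthase, Cs, was 1.82-fold lower (11.38 and 11.07 against 10.47 and 10.26), and Ogdh 1.92-fold lower. Pdk4, the kinase that blocks pyruvate entry, was 3.29-fold lower (10.83 and 11.52 against 9.60 and 9.32; adjusted p = 0.096 and 0.012). The exception was Suclg2, the GTP-forming subunit of succinyl-CoA synthetase, 1.58-fold higher (adjusted p = 0.15 and 0.017). Its ATP-forming counterpart Sucla2 had a value of -0.76.

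Genes for the breakdown of branched-chain amino acids, which brown fat uses as fuel, had a median of -0.40. Without overlap, 13 of 20 were lower and 3 higher (background 20.1% and 21.8%). Pccb (2.45-fold), Ppm1k, the phosphatase that activates the pathway's dehydrogenase (2.21-fold), and Mccc2 (1.70-fold) were lower past the fit of 11 arrays, with adjusted p = 0.12, 0.085 and 0.13 in the fit of 4. In glycolysis the isoforms of phosphofructokinase differed in direction. Pfkm read 6.13 and 5.65 against 4.71 and 4.99, 2.06-fold lower (adjusted p = 0.14 and 0.011), and Pfkp 8.40 and 8.15 against 9.41 and 9.36, 2.16-fold higher (adjusted p = 0.081 and 0.00073). Pfkfb3, which makes their activator, was 4.59-fold lower (adjusted p = 0.14 and 0.011). Slc2a4, the insulin-regulated glucose carrier, overlapped (-0.22 ± 0.21). Acsl5 and Acsl4, enzymes that activate fatty acids, also went opposite ways, at 4.21-fold lower (9.41 and 8.85 against 6.86 and 7.26; adjusted p = 0.075 and 0.0026) and 2.06-fold higher (adjusted p = 0.16 and 0.027).

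Of the marker lists of other cell types, some had higher signals in the knockout arrays and others had medians near 0. Macrophage markers were higher: 18 of 21 without overlap and 0 lower (background 21.8% and 20.1%), and 15 past the fit of 11 arrays (background 4.41%). None of the markers passed the fit of 4, in which 16 had an unadjusted p under 0.05. Their median was 1.22, and their mean log2 signal was 4.71 and 4.63 in controls and 5.59 and 5.85 in knockouts. C1qc and C1qb, subunits of complement C1q, read 4.17 and 4.12 against 5.63 and 5.89 (3.06-fold; adjusted p = 0.052 and 9.8e-05) and 6.63 and 6.89 against 8.35 and 8.32 (2.98-fold). The defining marker Adgre1 read 4.75 and 4.46 against 6.10 and 6.11, 2.83-fold higher (adjusted p = 0.059 and 0.00024), and the mannose receptor Mrc1 was 3.01-fold higher (7.14 and 6.92 against 8.53 and 8.71). Trem2 and Itgax overlapped, with signals of 2.59 to 3.17 in all arrays, close to the array medians. These markers alone do not show whether any macrophage state differed. Antigen presentation genes were higher without overlap in 10 of 12 and lower in 0 (median 0.56). H2-K1 read 7.73 and 7.70 against 9.65 and 9.76, 3.98-fold higher (log2 fold change 1.99 ± 0.13, adjusted p = 0.052 and 0.00024), and the class II gene H2-Aa 7.33 and 7.27 against 8.64 and 8.71 (2.60-fold).

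T and NK cell markers were higher without overlap in 9 of 17 and lower in 1 (background 21.8% and 20.1%), with a median of 0.26. Cd3e (2.34-fold) and Ccl5 (2.10-fold) were among 6 higher past the fit of 11 arrays (background 4.41%). The mast cell protease Cpa3 was 2.96-fold higher (6.50 and 6.53 against 7.82 and 8.34; adjusted p = 0.081 and 0.0024), in a list of 14 granulocyte and mast cell markers of which 4 were higher and 1 lower without overlap, with a median of 0.06 that became -0.08 without Med1f/f replicate 1. Fibroblast matrix genes were higher without overlap in 27 of 32 and lower in 0, with 9 past the fit of 11 arrays, 22 at an unadjusted p under 0.05 in that of 4, and a median of 0.62. Their mean signal was 5.93 and 5.90 in controls and 6.56 and 6.43 in knockouts. Lum, lumican, was 2.67-fold higher (6.81 and 6.56 against 8.24 and 7.95; adjusted p = 0.075 and 0.02), Loxl1 2.02-fold and Col3a1 1.65-fold. Adipocyte progenitor markers had a median of 0.73, with 9 higher and 2 lower of 14 without overlap. In the fit of 11 arrays 3 were higher and 1 lower, and the list's lowest value was -0.97. Pdgfra was 2.07-fold higher (6.89 and 6.45 against 7.61 and 7.83; adjusted p = 0.12 and 0.018) and Dpt 2.36-fold (adjusted p = 0.11 and 0.0066). Endothelial markers had a median of -0.08, with 2 higher and 4 lower of 16 without overlap (background 21.8% and 20.1%). The part of these other cells in the fat cell results was not tested.

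**Figure D4:**
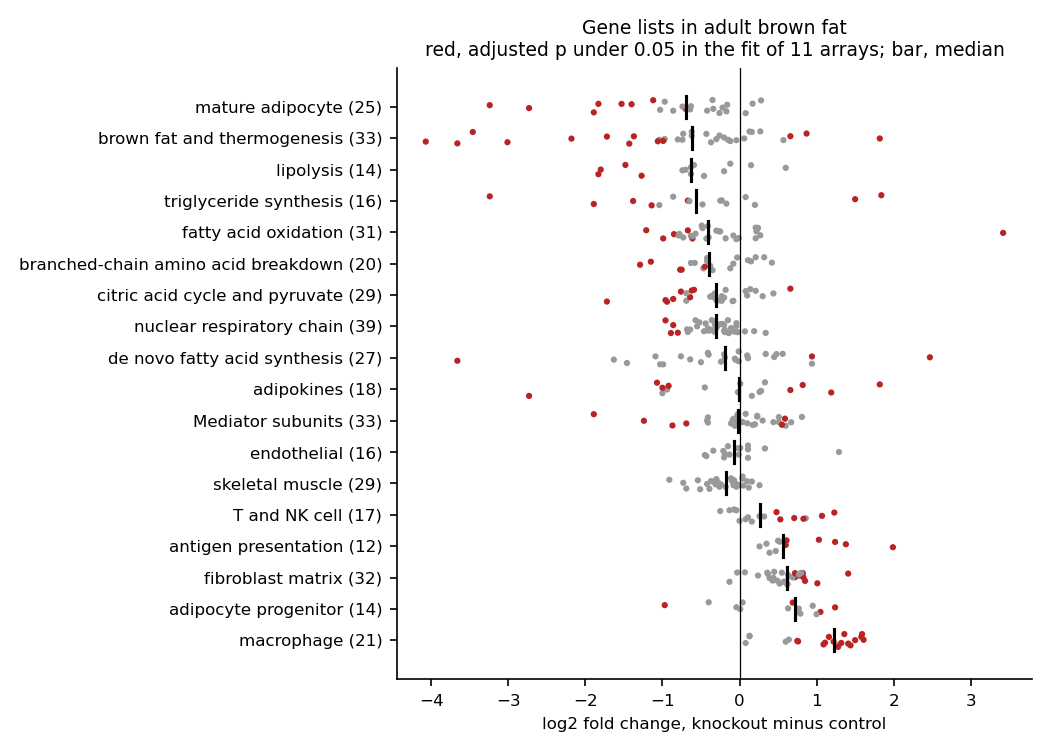
Log2 fold change, knockout minus control (horizontal axis), of each measured member of 18 gene lists (rows, with the number measured), with members called in the fit of 11 arrays in red, others in grey and the list median as a bar. Medians run from -0.70 for mature adipocyte genes to 1.22 for macrophage markers, with Cpt1a alone at 3.42 in the fatty acid oxidation row.

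Smooth muscle and nerve lists held single large differences. Des, desmin, read 7.13 and 7.30 against 5.82 and 5.76, 2.68-fold lower (adjusted p = 0.052 and 0.0025), and Acta2, smooth muscle actin, was 1.93-fold higher (adjusted p = 0.12 and 0.0082). S100b, a calcium-binding protein of glia that brown fat cells also make, was 5.34-fold lower (6.80 and 6.46 against 4.67 and 3.76; adjusted p = 0.083 and 0.0017). Skeletal muscle genes had a median of -0.18 over 29, with 1 higher and 3 lower without overlap (background 21.8% and 20.1%). Of them 0 were called in either fit (0 at an unadjusted p under 0.05 in the fit of 4), and the median became 0.28 without Med1f/f replicate 2.

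Stress and early response genes stood higher in part. Of 16 immediate early genes, 7 were higher without overlap (background 21.8%) and 2 passed the fit of 11 arrays (background 4.41%), Nr4a2 (5.46 and 5.45 against 8.93 and 7.40) and Fos (3.61 and 3.40 against 5.79 and 4.30). Their mean signal was 4.72 and 4.45 in controls and 6.25 and 4.91 in knockouts, so the first knockout array stood apart, and without it the list's median of 0.88 became 0.18, against 0.51 without Med1f/f replicate 2 and 1.37 without AdipoqCreMed1f/f replicate 2. Genes of the unfolded protein and integrated stress responses were higher without overlap in 12 of 24 and lower in 4 (background 21.8% and 20.1%). Their median was 0.24. Psat1, of serine synthesis, was 2.14-fold higher (2.94 and 2.98 against 4.0 and 4.11; adjusted p = 0.075 and 0.0039), Sdf2l1 1.79-fold and the chaperone gene Hsp90b1 1.76-fold. In the xenobiotic and oxidative stress list, 5 of 20 genes were higher and 9 lower without overlap (background 21.8% and 20.1%). Its median was -0.13, and its lowest value was -4.94, that of Cyp2e1. Ephx1 rose, and the glutathione transferase gene Gstt1 was 2.24-fold higher (adjusted p = 0.24 and 0.025). Gpx3, a secreted glutathione peroxidase, was 2.54-fold lower (9.05 and 9.03 against 7.71 and 7.68; adjusted p = 0.052 and 0.00037). Of 14 hypoxia genes, 4 were higher and 6 lower without overlap, and the median was -0.03. Vegfa (adjusted p = 0.15 and 0.028) and Bnip3 (0.18 and 0.034) were 2-fold and 2.52-fold lower, and P4ha1, a collagen prolyl hydroxylase subunit, was 2.03-fold higher (0.12 and 0.007).

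The other adipokine genes went both ways. Among 18 measured, 8 were higher and 7 lower without overlap (background 21.8% and 20.1%), and the median was -0.01. Lcn2, lipocalin 2, was 2.29-fold higher (3.41 and 3.57 against 4.67 and 4.70; adjusted p = 0.075 and 0.0063) and Igf1 1.77-fold higher (adjusted p = 0.32 and 0.037). Nampt and Nrg4 were 2.10-fold and 1.90-fold lower (adjusted p = 0.11 for both in the fit of 4 arrays, and 0.0026 and 0.04 in that of 11).

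Of the 33 Mediator subunits measured, 4 were lower and 2 higher in the fit of 11 arrays (background 3.14% and 4.41%), Med1 among the lower. Med12l was 3.72-fold lower (6.14 and 4.68 against 3.65 and 3.38; adjusted p = 0.19 and 0.012), Med12, of the kinase module, 1.83-fold lower (7.23 and 7.19 against 6.46 and 6.22; adjusted p = 0.11 and 0.009) and Med9 1.61-fold lower (adjusted p = 0.17 and 0.013). Cdk19 and Med29 were 1.51-fold and 1.47-fold higher (adjusted p = 0.15 and 0.17 in the fit of 4 arrays and 0.012 and 0.018 in that of 11). Over the list, 11 were higher and 4 lower without overlap (background 21.8% and 20.1%), with a median of -0.02. The coactivator gene Ncoa1 was 1.67-fold higher (adjusted p = 0.16 and 0.012).

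The adult differences were set against those of the embryonic knockout by a test of the difference itself, limma's interaction in the fit of 11 arrays, which called 441 genes (1.99%). Of the 152 genes chosen for naming, 29 were among them. Apart from the core genes, the 152 were picked by their adult values on the same arrays. That choice favours adult values larger than embryonic ones, so the 29 cannot be set against the 1.99%. The adult and embryonic arms differ in age, in the Cre driver and in the control genotype, and these cannot be told apart. Between the embryonic groups, the sex-linked genes Xist and Kdm5d had log2 fold changes of -2.17 ± 1.54 and 1.25 ± 0.77. Neither passed limma's fit of the 7 embryonic arrays (adjusted p = 0.48 and 0.42). The part of sex in the comparison was not tested. Oxct1 had an adult value of -2.01 and an embryonic value of -0.15 (adjusted p of the difference 0.0012). Ephx1 had 2.86 and 0.50 (0.0021), and Mfsd4b1 -2.15 and -0.55 (0.0066). For Cpt1a the values were 3.42 and 0.21 (0.0034), for Cyp2e1 -4.94 and -0.66 (0.015), for Ppargc1b -3.01 and -0.66 (0.013), for Ppara -3.46 and -1.29 (0.042) and for Retn -2.73 and -0.37 (0.013). C1qc had 1.61 and 0.09 (0.0016) and H2-K1 1.99 and -0.29 (0.0016).

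For other genes the difference between the adult and embryonic effects did not pass, which is not a test of equality. Cidea was at -1.37 in adults and -1.21 in embryos (adjusted p of the difference 0.86), Gpam at -1.14 and -1.08 (0.96), Slc25a20 at -0.99 and -1.43 (0.49) and Acacb at -1.63 and -1.63. Lncbate10 was at -4.11 and -2.12 (0.061). Ucp1 and Scd1 had the larger values in embryos, -3.14 against -0.97 in adults and -2.62 against -1.09, and neither difference passed (0.11 and 0.23). By lists, macrophage markers had a median of 1.22 in adults and 0.11 in embryos, fibroblast matrix genes 0.62 and 0.52, mature adipocyte genes -0.70 and -0.61, and skeletal muscle genes -0.18 and 0.75.

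**Figure D5:**
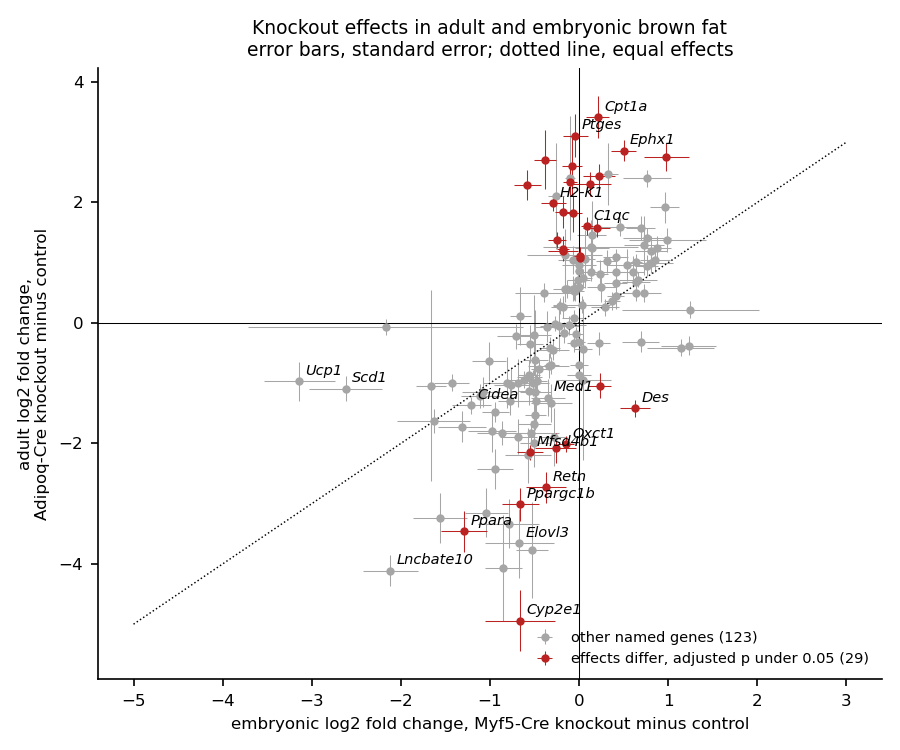
Log2 fold change in adults, Adipoq-Cre knockout minus Med1f/f (vertical axis), against that in embryos, Myf5-Cre knockout minus its control (horizontal axis), for the 152 genes chosen for naming, with standard errors as bars and the 29 genes whose effects differed at an adjusted p under 0.05 in red. Ephx1, Cpt1a and Ptges lie far above the line of equal effects and Cyp2e1, Ppara and Ppargc1b below it, while Cidea lies near it.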

How the data were processed

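The deposited values are log2 signals of RMA, made by the authors; the submitters' processing notes list this method and Transcriptome Analysis Console. This method subtracts background, gives the arrays of a run equal distributions and combines the probes of each transcript cluster. The genome build is not given in the sources used here. Of 41345 clusters, 23521 had 1 gene symbol in the platform annotation, 1814 several and 16010 none. For the 1082 genes with more than 1 cluster, that with the highest mean over the 19 arrays was kept, which left 22180 genes, 21994 of them matched to RefSeq by gene ID. No dim gene was left out, and a fold is written without a bound because no named fold rests on a group under its arrays' lower quartiles.

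The tests used limma 3.58.1 under R 4.3.3 (a linear model with eBayes, no trend, two-sided p-values, Benjamini-Hochberg adjusted over all genes at a threshold of 0.05), on the 4 adult arrays and, as an alternative, on all 11 brown fat arrays with 4 group means; the embryonic arrays were normalized apart from the adult ones by the look of their medians, so only differences within an experiment entered. The fit was tested on simulated data. The number of arrays limits the precision. The embryonic values come from a fit of the 7 embryonic arrays.

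Named genes are 26 core genes of fat cells, the 12 largest differences in each direction (called genes, then those with an unadjusted p under 0.01 and no overlap), and from each of 44 gene lists the called members or else up to 3 with the largest values without overlap. Further list members are named where they passed the fit of 11 arrays, for contrast with a named gene or, where said, after their values were seen. The members and lists were chosen with earlier results of these data known.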

Additional observations from a re-analysis of the deposited data

Results flagged for a closer look

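For 29 of the named genes the knockout effect in adults differed from that in embryos by limma's interaction test (adjusted p under 0.05). Most named genes were picked by their adult values on the same arrays, which favours such differences. The values here are the adult minus the embryonic log2 fold change. Both effects are set in different ages, Cre drivers and control genotypes, so a difference cannot be given to any 1 of them. Enzymes and regulators of lipid and ketone use with lower adult values were Cyp2e1 (-4.28), Ppargc1b (-2.35), Ppara (-2.17), Oxct1 (-1.86) and Acsl5 (-1.81), and the transporter gene Mfsd4b1 (-1.61), the adipokine gene Retn (-2.35) and desmin (Des, -2.05) were lower too. Those with higher adult values were Cpt1a (3.22) and Mogat1 (2.02). Of the phosphofructokinase genes of glycolysis, Pfkm had a lower adult value (-1.27) and Pfkp a higher one (1.10).

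Of genes of signalling, secretion and detoxification, Ptges (3.14), Nr4a2 (3.10), Aqp11 (2.88), Atp4b (2.68), Cdh9 (2.44), Ephx1 (2.36), Enpep (2.22), Orm1 (2.19), Bmp8b (1.89), Plod2 (1.78) and Lcn2 (1.38) had higher adult values. So had the immune genes H2-K1 (2.28), H2-Aa (1.63), C1qc (1.52), Cd3e (1.41), C1qb (1.37) and Ccl5 (1.06).

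Outside the 22180 genes, 17824 clusters had several symbols or none. In limma's fit of the 4 adult arrays 1 of them was called lower and 0 higher, and in the fit of 11 arrays 54 and 96. They were not named here.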

How the results depend on the processing

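With 2 arrays a group, the number of calls moved with almost every choice. In place of 6 genes (3 higher, 3 lower), limma called 1676 (979, 697) in the fit of all 11 brown fat arrays, 37 (19, 18) with a mean-variance trend, 52 (31, 21) with robust fitting, 58 (33, 25) with genes above the lower quartile only, 69 (36, 33) with genes above the median only, 64 (33, 31) after another quantile normalization and 64 (34, 30) after median centring. The row with the highest adult mean gave 6 and the mean of all rows of a gene 7. All 6 genes were called under each of these, and 0 genes (0 higher, 0 lower) when any 1 array was left out, which leaves a group with 1 array that is assumed to vary like the other group; 1984 to 2333 genes then had an unadjusted p under 0.05. Between 304 and 524 genes differed between adult and embryonic effects with 1 array left out, and 363 to 491 under the other choices except the block.

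The replicate numbers are shared by both groups. Same-numbered arrays deviated together over genes (correlation 0.33), but with only 2 pairs this does not show that the numbers pair the samples. With a replicate block, 139 genes were called (71 higher, 68 lower), and 800 differed between adult and embryonic effects.

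Among the named genes, directions turned when 1 array was left out for Mlxipl, Srebf1, Acaca, Acly, Elovl6, Lep, Slc2a4, Lpl, Dio2, Ppargc1a and Prdm16, none of which passed either fit. With quantile normalization Fabp4 turned to 0.03 and Elovl6 to 0.07. Medians of lists also turned: with 1 array left out, de novo fatty acid synthesis ran from -0.40 to 0.17, glycolysis from -0.17 to 0.01, skeletal muscle from -0.48 to 0.28, hypoxia from -0.26 to 0.15, granulocytes and mast cells from -0.08 to 0.23, smooth muscle from -0.11 to 0.07, B cells from -0.02 to 0.14 and sex-linked genes from -0.09 to 0.1, while adipokines (-0.01 with all arrays) lay at 0.02 to 0.06 and Mediator subunits (-0.02) at 0.03 to 0.16. Of the others, lipolysis ranged from -0.87 to -0.31 with 1 array left out, macrophage markers from 1.03 to 1.34, fibroblast matrix genes from 0.50 to 0.67 and mature adipocyte genes from -0.94 to -0.52. The cause of these changes was not tested. The glycolysis median includes Pigq (log2 fold change 0.02), which was matched by synonym to the listed Gpi1 and is not a glycolysis gene. Signals carry no test against background, which limits what dim genes can show.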

Other observations

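Small nucleolar RNAs, which guide the chemical modification of ribosomal RNA and are mostly cut from introns of host genes, were higher in the knockout arrays. The set, all genes whose symbol starts with Snora or Snord, was chosen after the values were seen. Of 73 measured, 60 were higher and 3 lower without overlap (background 21.8% and 20.1%). None was called in limma's fit of the 4 arrays, in which 49 had an unadjusted p under 0.05, all higher. In the fit of 11 arrays 35 were higher and 0 lower (background 4.41% and 3.14%). Their mean log2 signal was 6.82 and 6.75 in the Med1f/f arrays and 7.53 and 7.56 in the knockouts. The median log2 fold change was 0.84, and 0.77 to 0.87 with any 1 array left out. Snord70 read 7.11 and 7.26 against 8.76 and 8.97, and Snord16a 9.41 and 9.03 against 10.65 and 10.64. The box C/D class (Snord) had a median of 1.01 over 47 genes, and the box H/ACA class (Snora) 0.48 over 26. In the embryonic knockout the 73 genes had a median of 0.20.

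The host genes named Snhg, 15 in number, had a median of -0.02 in adults, with 1 higher and 2 lower without overlap. Ribosomal protein genes (66 with Rpl or Rps symbols) had a median of 0.26, with 44 higher and 1 lower without overlap (background 21.8% and 20.1%). In the fit of 11 arrays 13 of them were higher (background 4.41%). MicroRNA genes (478) had a median of 0.00, with 73 higher and 90 lower without overlap (background 21.8% and 20.1%).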
